A study of Mus musculus with 2 samples.

Results

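Circadian clock genes were described in single nuclei of mouse quadriceps. The genes were Arntl, Clock, Per1, Per2, Per3, Cry1, Cry2, Nr1d1, Nr1d2 and Dbp, chosen by symbol as the core of the clock, and they are 10 of 53700 features in the count matrices. All 10 had UMIs (unique molecular identifiers, 1 per captured RNA molecule) in both libraries. Nuclei came from quadriceps of PTRF KO mice and of WT mice, both C57BL/6N and 3 months of age, with 1 library per genotype. PTRF, now named Cavin1, is a coat protein of caveolae, the small pits of the plasma membrane that are dense in muscle and fat. The labels name no treatment, no Cre driver and no time of day, and give neither the number nor the sex of the mice.

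The mammalian clock is a feedback loop that runs in nearly every cell. ARNTL (also called BMAL1) and CLOCK bind DNA together at E-boxes and switch on the Per, Cry, Nr1d1, Nr1d2 and Dbp genes. PER and CRY proteins then block ARNTL and CLOCK, while NR1D1 and NR1D2 (REV-ERB alpha and beta) repress Arntl through ROR elements. As a result Arntl transcripts peak at the opposite time of day from those of Nr1d1 and Dbp, so the balance of these genes is a standard read-out of clock phase. In skeletal muscle the clock is set by feeding, activity and glucocorticoids, and it drives genes of fuel use. Whether the 2 libraries differ in this balance is the question here, and with 1 library per genotype it can be described but not tested.

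Promoter sequences of 9 of the 10 genes, at 13 start sites, were found in RefSeq on build GRCm38.p6. Per2 was not matched. Each window holds 250 bases before and 50 after the start. Both strands were searched for the E-box CACGTG, the related box CACGTT, the D-box TTATGTAA bound by DBP, and the ROR element TAGGTCA. The letters CACGTG occurred in 7.15% of the 32851 promoters in the table, CACGTT in 4.68%, TTATGTAA in 0.938% and TAGGTCA in 2.61%. The D-box letters were found in Per3 alone among the clock genes, and CACGTG in Per1 and Cry1.

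The 4 promoters shown here belong to Arntl, which was lower in the PTRF KO library, and to Nr1d1, Cry1 and Cry2, which were higher there, and they were chosen because they hold one of the motifs. The promoter of Dbp, which was also higher, and the other listed start site of Arntl hold none of the 4. Capitals mark the letters found, the ROR element in Arntl (chr7:113207261-113207560, plus strand) and the box CACGTT, read on the other strand as AACGTG, in Nr1d1 (chr11:98775328-98775627, minus strand) and Cry2 (chr2:92434020-92434319, minus strand). Cry1 (chr10:85185005-85185304, minus strand) holds both CACGTT and CACGTG. A match to these letters is a description and not proof of a bound site.
Arntl: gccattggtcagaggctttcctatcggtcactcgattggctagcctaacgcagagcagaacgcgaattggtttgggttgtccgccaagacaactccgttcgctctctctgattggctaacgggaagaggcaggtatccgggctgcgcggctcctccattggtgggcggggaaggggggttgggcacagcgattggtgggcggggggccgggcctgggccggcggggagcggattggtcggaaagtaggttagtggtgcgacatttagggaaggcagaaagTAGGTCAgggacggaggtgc
Nr1d1: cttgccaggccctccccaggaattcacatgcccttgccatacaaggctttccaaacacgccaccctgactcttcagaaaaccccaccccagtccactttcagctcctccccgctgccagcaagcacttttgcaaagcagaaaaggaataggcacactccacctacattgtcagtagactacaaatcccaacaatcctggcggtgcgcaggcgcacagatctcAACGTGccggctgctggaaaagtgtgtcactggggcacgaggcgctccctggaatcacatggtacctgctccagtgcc
Cry1: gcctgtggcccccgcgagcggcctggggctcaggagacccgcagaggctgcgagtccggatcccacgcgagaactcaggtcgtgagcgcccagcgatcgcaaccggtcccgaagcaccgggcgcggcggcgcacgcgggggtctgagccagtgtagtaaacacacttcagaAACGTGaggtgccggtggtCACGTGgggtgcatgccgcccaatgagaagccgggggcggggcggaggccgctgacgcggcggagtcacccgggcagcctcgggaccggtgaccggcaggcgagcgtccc
Cry2: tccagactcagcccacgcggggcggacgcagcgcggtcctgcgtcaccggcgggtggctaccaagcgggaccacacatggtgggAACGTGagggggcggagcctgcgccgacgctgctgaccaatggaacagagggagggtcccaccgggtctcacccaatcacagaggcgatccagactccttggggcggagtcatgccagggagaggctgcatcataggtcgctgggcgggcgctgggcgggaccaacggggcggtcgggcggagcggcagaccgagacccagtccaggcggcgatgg

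The PTRF KO library held 7762 kept nuclei with a median of 1562 UMIs, and the WT library 10272 with a median of 703. Cavin1, the targeted gene, had 2 UMIs (0.125 CPM, UMIs scaled to a common total) in PTRF KO nuclei and 75 (7.70 CPM) in WT nuclei. The clock genes together took 0.0770% of UMIs in the PTRF KO library and 0.0795% in WT. The libraries stood apart in 3 ways that touch what follows. No PTRF KO nucleus but 2055 WT nuclei held under 500 UMIs, and the ribosomal RNA Rn18s took 2.90% of UMIs in PTRF KO and 8.07% in WT. In the PTRF KO library 1527 nuclei carried Xist with no Y-linked UMI and 3103 carried Y-linked UMIs with no Xist, against 2 and 2721 in WT, so that the PTRF KO library held nuclei of both sexes. The 2 libraries shared 24 barcodes. Among 25 clusters, 5402 PTRF KO and 7663 WT nuclei were myonuclei-like. All 12 myonuclear markers were detected in them, at a summed level of 78001 CPM in PTRF KO and 101449 CPM in WT. All 12 were also detected in some other classes, for example in adipocyte-like PTRF KO nuclei at a summed 12501 CPM. A further 59 PTRF KO and 1530 WT nuclei were unnamed and left out of the myonuclei. Of these, 24 PTRF KO and 1293 WT nuclei lay in 1 cluster with myonuclear marker levels.

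In myonuclei-like nuclei the balance of the clock genes differed between the libraries. Arntl was lower in PTRF KO, while Nr1d1, Cry2, Dbp and Cry1 were higher, and Clock and the 3 Per genes lay within counting error of WT. Ratios are log2 of PTRF KO over WT, with 0.5 UMI added to each sum and an exact 95% interval that covers counting error only. No interval speaks for other mice.

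Of the activators, Arntl had 892 UMIs (72.4 CPM) in PTRF KO myonuclei and 829 UMIs (109 CPM) in WT myonuclei. The log2 ratio was −0.59 (−0.73 to −0.45). Clock, which encodes the partner of ARNTL, had 68.4 CPM in PTRF KO and 65.0 CPM in WT, a log2 ratio of 0.07 (−0.09 to 0.24). Thus 1 member of the activator pair differed beyond counting error and the other did not. Arntl is a long gene of 107 kb, and genes in the longest of 5 length classes of equal gene number (105 to 4435 kb) had a median log2 ratio of −0.40 with quartiles of −2.57 and 0.25. Arntl lies at the short end of that class. The next shorter class (45.1 to 104.9 kb) had a median of 0.10 with quartiles of −0.29 and 0.40. The Arntl ratio lies between the quartiles of the longest class and below those of the next shorter class. The part of gene length in the Arntl ratio was not tested. Clock, at 94.9 kb, is in the fourth length class, whose median was 0.10, and overlaps Ube2n-ps1 and Gm43658 on its own strand, so part of its UMIs is uncertain.

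Among the repressors, both Cry genes were higher in PTRF KO and no Per gene differed beyond counting error. Cry2 had 555 UMIs (45.1 CPM) in PTRF KO and 228 (29.9 CPM) in WT, a log2 ratio of 0.59 (0.37 to 0.82). Cry1 had 34.8 CPM in PTRF KO and 28.4 CPM in WT, a log2 ratio of 0.29 (0.05 to 0.54). Both cryptochromes thus stood above WT. Per1, which answers fast to light, cAMP and glucocorticoid cues as well as to the clock, had 39.8 CPM in PTRF KO and 36.1 CPM in WT (log2 ratio 0.14, −0.08 to 0.36). Per2 had 19.7 CPM in PTRF KO and 23.1 CPM in WT (−0.23, −0.52 to 0.06). Per3 had 43.9 CPM in PTRF KO and 45.8 CPM in WT (−0.06, −0.26 to 0.14). Part of the Per3 UMIs is uncertain because the gene lies within the annotated span of Camta1 on the same strand, and Camta1 had 192 CPM in PTRF KO and 283 CPM in WT.

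The REV-ERB pair did not move together. Nr1d1 had 573 UMIs (46.5 CPM) in PTRF KO and 227 (29.8 CPM) in WT, with a log2 ratio of 0.64 (0.42 to 0.87). Nr1d2 had 4484 UMIs (364 CPM) in PTRF KO and 3027 (397 CPM) in WT, with a log2 ratio of −0.13 (−0.19 to −0.06). Nr1d1 was thus higher and Nr1d2 slightly lower in the PTRF KO library. Nr1d1 overlaps Thra on the opposite strand, and the sources used here do not say whether strand was used in counting. Thra itself ran the other way, at 40.7 CPM in PTRF KO and 53.6 CPM in WT.

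Dbp, the output gene that encodes a D-box activator, had 695 UMIs (56.4 CPM) in PTRF KO and 328 (43.1 CPM) in WT. Its log2 ratio was 0.39 (0.20 to 0.58). Dbp and Nr1d1 are short genes, at 5.12 and 7.40 kb, and the shortest length class had a median log2 ratio of 0.06 with quartiles of −0.31 and 0.47. The Nr1d1 ratio lies above that range and the Dbp ratio within it. Dbp overlaps Sphk2 on the opposite strand, and Cry2 and Arntl each overlap a noncoding gene there.

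**Figure D1:**
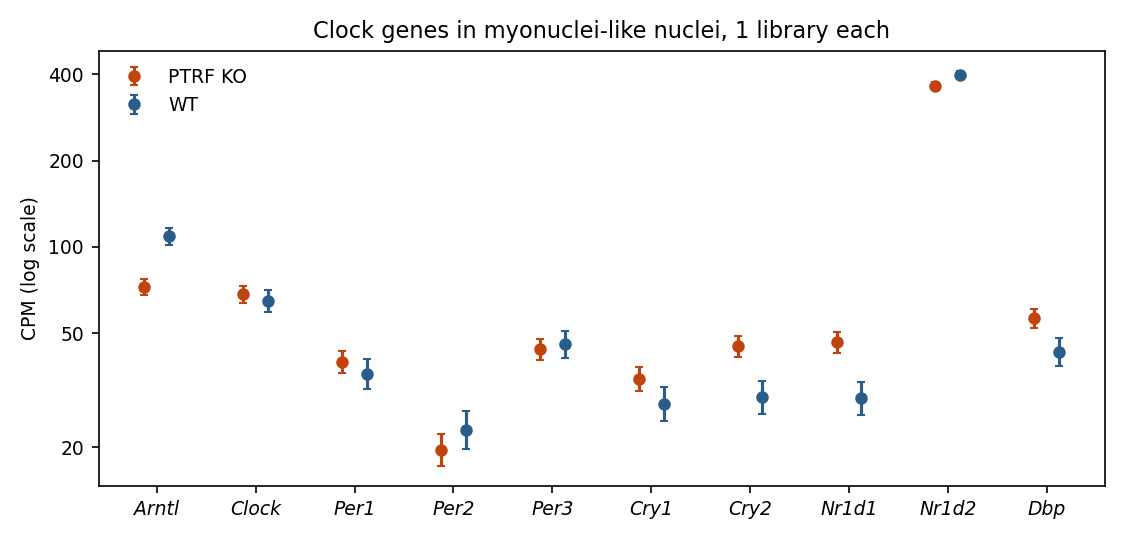
Level of the 10 clock genes in myonuclei-like nuclei, in CPM on a log scale, for the PTRF KO library (left of each pair) and the WT library (right); bars are exact 95% Poisson intervals. Arntl sits at 72.4 CPM in PTRF KO and 109 CPM in WT, while Nr1d1, Cry2 and Dbp lie above WT and the Per genes overlap it.

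By the fold used to count changes, 1.5-fold in either direction, 2 of the 10 clock genes were higher (Nr1d1 and Cry2) and 1 was lower (Arntl). Of all 11230 genes with at least 50 UMIs, 13.1% were higher and 19.6% lower by that fold. The counts are thus close to what the whole transcriptome showed, and Cry2 and Arntl sit at the threshold itself, Arntl at −0.59 and Cry2 at 0.59. The median ratio of the 10 genes was 0.11, against 0.00 for all genes tested. Scaling without Rn18s, Malat1, Ttn, mitochondrially encoded and ribosomal protein genes moved the median of all genes to −0.11, under which Arntl was at −0.71, Nr1d1 at 0.52, Cry2 at 0.47 and Dbp at 0.27, and 0 clock genes were higher by 1.5-fold. Under that scaling the Cry1 interval reached 0 (0.17, −0.07 to 0.42) and the Per2 interval did not (−0.35, −0.64 to −0.07).

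A ratio of 2 clock genes within 1 library does not depend on that scaling, but gene length can still enter it. Arntl is in the longest length class and Nr1d1 and Dbp are in the shortest, and the part of length was not tested. Nr1d1 had 0.642 UMIs per Arntl UMI in PTRF KO myonuclei and 0.274 in WT, a log2 difference of 1.23 (0.96 to 1.498). Dbp per Arntl was 0.779 in PTRF KO and 0.396 in WT, a difference of 0.98 (0.74 to 1.22). Cry2 per Arntl was 0.622 in PTRF KO and 0.275 in WT, a difference of 1.18 (0.91 to 1.45). The 6 other genes also stood higher relative to Arntl in PTRF KO, by 0.35 (Per2, 0.03 to 0.67) to 0.88 (Cry1). These 9 ratios share Arntl, so they repeat its lower level and are not separate pieces of evidence. By their own levels Nr1d1, Dbp, Cry1 and Cry2 were higher in PTRF KO, Nr1d2 was lower and the Per genes lay within counting error. Whether the libraries differ in clock phase was not tested. The time of collection of the muscles is not given, and genotype, time of day and sex pooling cannot be told apart here.

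Other genes of the clock and its inputs gave context. Of 25 clock-associated genes 22 were tested, of which 3 were higher and 2 lower by 1.5-fold, with a median log2 ratio of 0.31 against 0.00 for all genes. These counts stand beside the 13.1% higher and 19.6% lower of all genes tested, so that the list was not set apart by its calls. The higher ones were Bhlhe40 (78.9 CPM in PTRF KO and 32.3 in WT, log2 ratio 1.29) and Bhlhe41 (1.23), which encode DEC repressors that compete for E-boxes, and Nampt (0.97), the rate-limiting enzyme of NAD salvage. Among the lower ones was Rorb (−1.49), which encodes an activator at ROR elements and had 65 UMIs in PTRF KO and 113 in WT. Rora, which encodes another such activator and is named here after its values were seen, had 3619 CPM in PTRF KO and 3504 CPM in WT (0.05, 0.02 to 0.07).

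Genes that answer to the same cues as Per1 were set beside it. Of 8 cAMP and immediate early genes, 7 were higher and 0 lower by 1.5-fold, with a median log2 ratio of 2.17. By that fold, 13.1% of all genes tested were higher and 19.6% lower, shares that stand beside each list here. Nr4a3 had 112 CPM in PTRF KO and 5.78 in WT (4.26), Nr4a2 had 17.2 CPM in PTRF KO and 1.97 in WT (3.08), and Egr1 had 9.91 CPM in PTRF KO and 1.18 in WT (3.00). Of 8 glucocorticoid-responsive genes 1 was higher (Errfi1, 0.73) and 4 were lower, with a median of −0.72. Fkbp5, which encodes a co-chaperone of the glucocorticoid receptor, had 24.4 CPM in PTRF KO and 168 in WT (−2.79). Zbtb16 was also lower (−1.41), as was Pdk4 (−1.27), which encodes a brake on glucose oxidation. Of 4 muscle genes known as clock outputs, Myod1 was higher (1.41), Ucp3 lower (−0.74), and the 2 others were within 1.5-fold.

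The PTRF KO library could be split by sex marks, which gave 572 Xist-marked and 2742 Y-marked myonuclei, beside 2170 Y-marked WT myonuclei. The marks separate nuclei of different mice within 1 genotype, though stray UMIs can put a nucleus in the wrong set. The marks also moved with depth and with fat: the median was 1583 UMIs in Xist-marked and 2345.5 in Y-marked PTRF KO myonuclei, and 707 adipocyte-like nuclei of that library were Xist-marked and 75 Y-marked. Their part in the differences was not tested. Arntl was at 42.4 CPM in Xist-marked and 75.6 CPM in Y-marked PTRF KO myonuclei, and at 112 CPM in Y-marked WT myonuclei. Between the 2 PTRF KO sets the log2 ratio of Xist-marked over Y-marked nuclei was −0.82 (−1.30 to −0.40). Y-marked PTRF KO over Y-marked WT nuclei gave −0.57 (−0.76 to −0.38). Arntl thus differed beyond counting error both within the PTRF KO library and between the libraries, and the intervals of the 2 ratios overlap.

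Cry2 was at 64.1 CPM in Xist-marked and 41.1 CPM in Y-marked PTRF KO myonuclei, and at 28.1 CPM in Y-marked WT myonuclei. The Xist-marked over Y-marked log2 ratio was 0.65 (0.25 to 1.01) and the Y-marked genotype ratio 0.55. Clock, which did not differ between the libraries beyond counting error, was at 50.5 CPM in Xist-marked and 73.7 CPM in Y-marked PTRF KO nuclei (−0.53, −0.97 to −0.15). Nr1d1 was at 46.9 CPM in Xist-marked and 43.8 CPM in Y-marked PTRF KO nuclei and at 28.4 CPM in Y-marked WT nuclei, with a Xist-marked over Y-marked ratio of 0.11 (−0.35 to 0.53) and a Y-marked genotype ratio of 0.62. Dbp was at 60.5 CPM in Xist-marked and 54.1 CPM in Y-marked PTRF KO nuclei and at 40.2 CPM in Y-marked WT nuclei (0.17, −0.23 to 0.54, within PTRF KO). Nr1d2 was at 399 CPM in Xist-marked and 354 CPM in Y-marked PTRF KO nuclei (0.17, 0.02 to 0.32). The intervals thus excluded 0 within PTRF KO for Arntl, Clock, Cry2 and Nr1d2, and spanned 0 for the 6 other clock genes. The share of all genes whose interval excluded 0 is not given here, so this count has no background. Over the 10 genes, 1 was higher and 1 lower by 1.5-fold between Xist-marked and Y-marked PTRF KO nuclei, beside 13.7% and 10.6% of all genes tested.

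**Figure D2:**
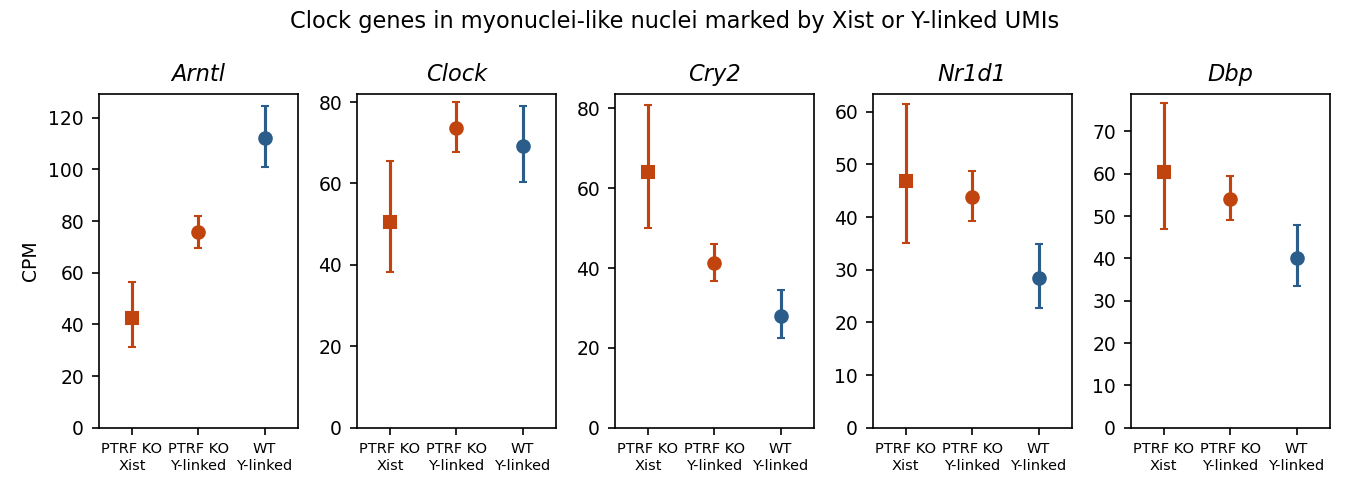
Level of 5 clock genes, in CPM, in myonuclei-like nuclei that carry Xist (squares) or Y-linked UMIs (circles), PTRF KO left of WT; bars are exact 95% Poisson intervals. Arntl is at 42.4 CPM in Xist-marked PTRF KO, 75.6 CPM in Y-marked PTRF KO and 112 CPM in Y-marked WT nuclei, and the intervals of Nr1d1 and Dbp overlap between the PTRF KO sets.

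Clock genes also varied among fibre types, which were called from the leading adult myosin heavy chain gene. IIb nuclei, the fast glycolytic type, numbered 3887 in each library, out of 5402 myonuclei-like nuclei in PTRF KO and 7663 in WT. IIx nuclei numbered 507 in PTRF KO and 778 in WT, and IIa nuclei 254 in PTRF KO and 484 in WT. Many myonuclei, more of them in WT, had no fibre call. The share called IIb was thus larger in PTRF KO, and its part in the ratios over all myonuclei was not tested. Only 34 PTRF KO and 11 WT nuclei were of the slow type I, too few to describe. Arntl was higher in IIb than in IIx and IIa nuclei in both libraries. It had 78.5 CPM in IIb, 48.4 in IIx and 42.6 in IIa nuclei of PTRF KO, and 117 CPM in IIb, 80.8 in IIx and 80.7 in IIa nuclei of WT. The log2 ratio of IIb over IIx and IIa together was 0.75 (0.43 to 1.10) in PTRF KO and 0.53 (0.26 to 0.81) in WT. When fibre type was called after thinning each nucleus to 500 UMIs, the PTRF KO ratio was −0.01 and the WT ratio 0.36, so the PTRF KO value depends on the depth of the call.

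Cry2 was likewise higher in IIb nuclei than in the other 2 types together, with IIb ratios of 0.59 (0.19 to 1.03) in PTRF KO and 0.85 (0.30 to 1.46) in WT. By 1.5-fold 3 of 10 clock genes were higher in IIb nuclei and 0 lower in PTRF KO, where 14.4% and 19.3% of all genes were. In WT 2 were higher and 0 lower, beside 14.6% and 16.1% of all genes. The 3 in PTRF KO were Arntl, Cry1 and Cry2, and the 2 in WT were Dbp and Cry2. Nr1d2 was even across fibre types, with ratios of 0.09 in PTRF KO and 0.06 in WT.

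Dbp and Per1 had a fibre-type pattern that differed between the libraries. Dbp in IIb nuclei was at 58.3 CPM in PTRF KO and 55.2 CPM in WT, a genotype log2 ratio of 0.08 (−0.15 to 0.30). In IIx nuclei it was at 48.4 CPM in PTRF KO and 21.2 CPM in WT, a ratio of 1.17 (0.46 to 1.97). In IIa nuclei it was at 44.2 CPM in PTRF KO and 23.1 CPM in WT (0.92, −0.00 to 1.93). Dbp was thus higher in PTRF KO beyond counting error in IIx nuclei and not in IIb nuclei. The IIa ratio was also above that of IIb nuclei, but it rested on 27 UMIs in PTRF KO and 16 in WT. Dbp in myonuclei with no fibre call was not measured apart, and where its difference between the libraries lay was not tested. The IIb over IIx and IIa log2 ratio was 0.30 in PTRF KO and 1.32 in WT, a difference of −1.01 (−1.66 to −0.41). For Per1 that ratio was −0.49 in PTRF KO and 0.46 in WT, a difference of −0.94 (−1.55 to −0.36), with 58.6 CPM in PTRF KO IIx nuclei and 26.9 CPM in WT IIx nuclei.

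Arntl did not share this pattern. Its genotype ratio was below 0 in every fibre type measured, at −0.91 in IIa, −0.74 in IIx and −0.57 in IIb nuclei. All 3 intervals lay below 0. Nr1d1 ratios were 0.64 in IIa, 0.66 in IIx and 0.54 in IIb nuclei, of which the IIb interval alone lay above 0. Hlf, which encodes a relative of DBP and was chosen for mention after its values were seen, was at 33.2 CPM in IIb nuclei of PTRF KO and 38.3 CPM in those of WT, and its IIb ratio was 1.22 in PTRF KO and 2.01 in WT. IIb nuclei had a median of 1928 UMIs in PTRF KO and 810 in WT, IIx nuclei 1888 in PTRF KO and 988.5 in WT, and the part of depth in these patterns was not tested.

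**Figure D3:**
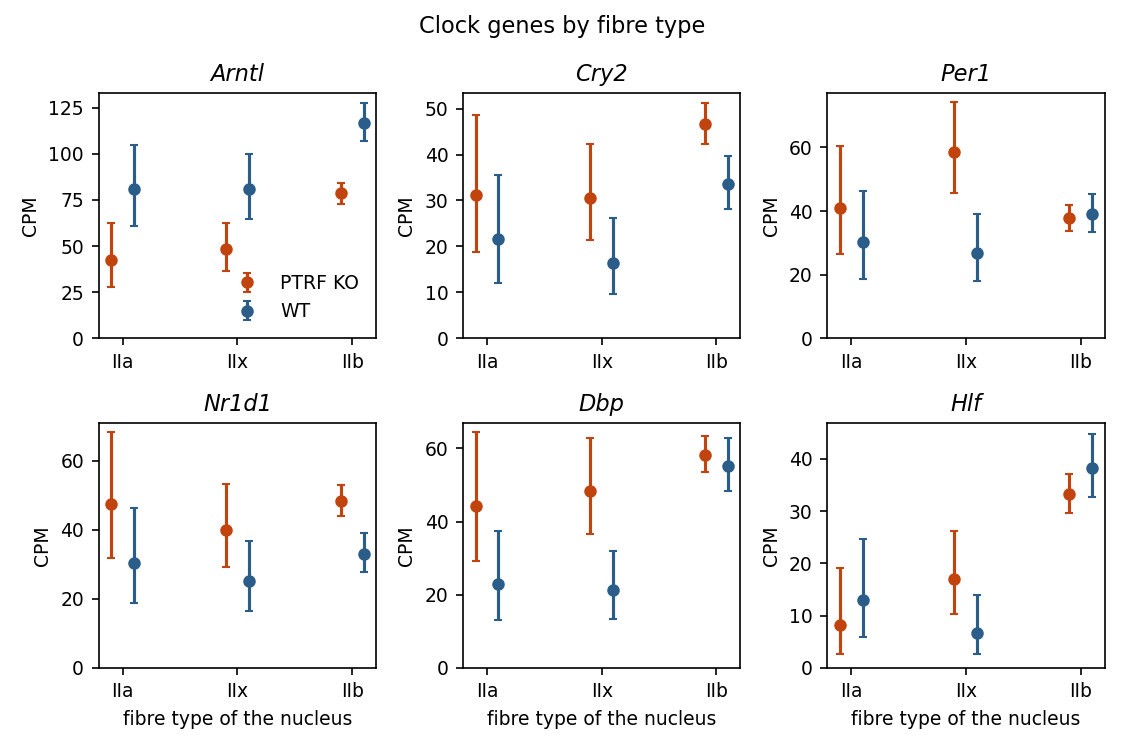
Level of 6 genes, in CPM, by fibre type of the nucleus (IIa, IIx, IIb) in PTRF KO (left of each pair) and WT (right) libraries; bars are exact 95% Poisson intervals. Dbp is at 58.3 CPM in PTRF KO and 55.2 CPM in WT for IIb nuclei but at 48.4 CPM in PTRF KO and 21.2 CPM in WT for IIx nuclei, while Arntl is lower in PTRF KO in all 3 types.

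Outside muscle fibres, 3 classes are described, the 2 that held at least 100 nuclei in both libraries and the adipocyte-like class: fibro-adipogenic-like (586 PTRF KO and 415 WT nuclei), macrophage-like (215 PTRF KO and 129 WT nuclei) and adipocyte-like (1070 in PTRF KO, but 17 in WT, so described in PTRF KO alone). Lymphatic endothelial-like nuclei (167 in PTRF KO), and satellite-like (232), B cell-like (128) and mural-like nuclei (113) of WT, passed 100 nuclei in 1 library only, and there Arntl rested on 15 to 21 UMIs. RNA of muscle fibres was present in each class described. Ttn, the sarcomere gene, stood at 36.8% of its myonuclear level in PTRF KO and 65.0% in WT fibro-adipogenic-like nuclei, and at 51.2% in PTRF KO and 53.8% in WT macrophage-like nuclei. The part of muscle fibre RNA in the clock levels of these classes was not tested.

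In fibro-adipogenic-like nuclei Arntl did not differ between the libraries beyond counting error, at 132 CPM in PTRF KO and 122 CPM in WT, with a log2 ratio of 0.11 (−0.41 to 0.66). This interval lies above that of myonuclei (−0.73 to −0.45), and the difference between the classes was not tested. Clock was at 153 CPM in PTRF KO and 101 CPM in WT (0.59, 0.06 to 1.18), and Nr1d2 at 228 CPM in PTRF KO and 313 CPM in WT (−0.46, −0.81 to −0.10). Nr1d1 rested on 26 UMIs in PTRF KO and 5 in WT, and Dbp on 17 UMIs in PTRF KO and 15 in WT, with intervals that span 0. Per Arntl UMI, no clock gene differed between the libraries beyond counting error.

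Npas2, whose protein can take the place of CLOCK beside ARNTL, was higher in this class than in myonuclei of both libraries, at 146 CPM in PTRF KO and 101 CPM in WT. In myonuclei it was at 12.2 CPM in PTRF KO and 9.58 CPM in WT. The class over myonuclei log2 ratio was 3.59 (3.21 to 3.95) in PTRF KO and 3.40 (2.78 to 3.98) in WT. In that comparison 34.8% of all genes tested were higher and 20.0% lower by 1.5-fold in PTRF KO, and 31.8% and 15.2% in WT. Npas2 was chosen for mention after its values were seen. In macrophage-like nuclei Arntl had 39 UMIs in PTRF KO and 17 in WT (113 CPM in PTRF KO and 152 CPM in WT, log2 ratio −0.46, −1.29 to 0.48). Clock was at 107 CPM in both.

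The adipocyte-like nuclei of PTRF KO had the lowest Arntl of any class described, at 27.8 CPM, against 72.4 CPM in PTRF KO myonuclei (log2 ratio −1.37, −1.80 to −0.99). Cry1 was likewise lower, at 14.9 CPM against 34.8 (−1.20), and Dbp was at 36.2 CPM against 56.4 (−0.63). Clock was higher, at 115 CPM against 68.4 (0.75), as was Nr1d1, at 67.4 CPM against 46.5 (0.54). By 1.5-fold 1 of the 10 clock genes was higher and 3 were lower than in myonuclei, beside 42.0% and 20.3% of all genes tested. The adipocyte marker list summed to 3515 CPM in PTRF KO myonuclei and 2369 CPM in WT myonuclei, and to 23285 CPM in adipocyte-like nuclei. That sum is not a measure of adipocyte RNA alone. In PTRF KO satellite-like nuclei it was 3199 CPM with 4 of the 10 markers detected, and Adipoq, Plin1, Cidec and Fasn were absent there. The part of adipocyte RNA in the Arntl level of myonuclei was not tested. Clock had 128 UMIs (101 CPM) in Xist-marked and 52 UMIs (244 CPM) in Y-marked adipocyte-like nuclei, a log2 ratio of −1.28 (−1.75 to −0.78). Of 7 clock genes tested in these sets, 1 was higher by 1.5-fold and 1, Clock, was lower. The Y-marked set held 75 nuclei, and the share of all genes past that fold is not given here.

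**Figure D4:**
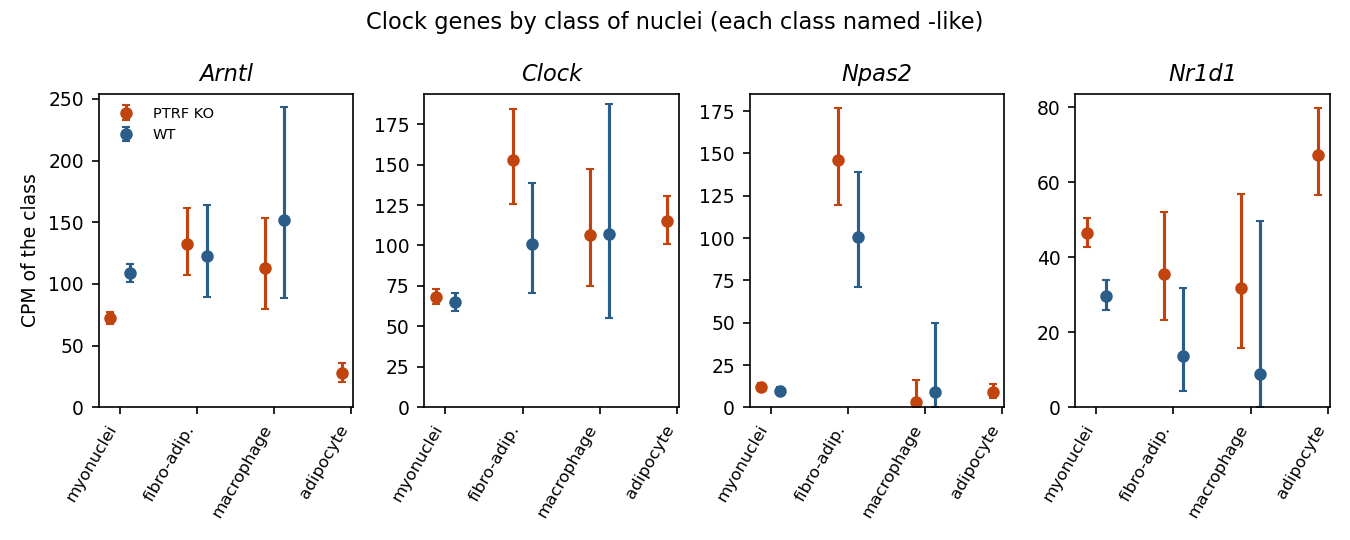
Level of Arntl, Clock, Npas2 and Nr1d1, in CPM of the class, in 4 classes of nuclei for PTRF KO (left of each pair) and WT (right); bars are exact 95% Poisson intervals and adipocyte-like nuclei are shown for PTRF KO only. Arntl is lowest in adipocyte-like nuclei (27.8 CPM), and Npas2 stands at 146 CPM in PTRF KO and 101 CPM in WT fibro-adipogenic-like nuclei.

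Genes whose pattern was most like that of Arntl were found over 15 groups of nuclei (library by fibre type or class). Among 4775 genes the highest Pearson correlations with Arntl were those of Gypc (0.850), Cst3 (0.827), Ksr1 (0.809), Cdh4 (0.799) and Fkbp5 (0.798). Those with Dbp were Mettl7a1 (0.939), Synrg (0.930), Arl6ip6 (0.914), Ndufaf5 (0.911) and Skp1 (0.909). Some groups rest on few UMIs, Dbp for example on 1 in WT macrophage-like and 15 in WT fibro-adipogenic-like nuclei. The groups of 1 library also share its depth and its processing, so these are descriptions of likeness only.

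Within each library, clusters of at least 100 myonuclei also spread. Over 8 PTRF KO clusters Arntl ranged from 45.7 to 90.7 CPM with a median of 69.7, and over 9 WT clusters from 69.5 to 129 CPM with a median of 103. Nr1d1 ranged from 29.1 to 56.4 CPM (median 41.8) in PTRF KO and from 17.4 to 43.6 CPM (median 29.98) in WT. The ranges of the 2 libraries overlap for both genes, but some of their ends rest on few UMIs. In WT the lowest and highest Nr1d1 levels rest on 2 and 4 UMIs, and the lowest Arntl level on 8. The highest Arntl level in PTRF KO rests on 15 UMIs. Among the 6 clusters with at least 100 nuclei in both libraries, Arntl was lower in PTRF KO in 6, for example at 75.9 CPM in PTRF KO and 116 CPM in WT in 1 of them and at 45.7 CPM in PTRF KO and 82.1 CPM in WT in another. Over the same 6 clusters Cry2 was higher in PTRF KO in 6, and Nr1d1 and Dbp each in 5. Clusters of 1 library are not replicates.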

How the data were processed

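Single-nucleus RNA of quadriceps was captured on the 10x Genomics 3′ platform. The deposited matrices hold unnormalised UMI counts for each gene in each barcode. Cell Ranger 6.0.0 wrote them, per the file headers. STAR, Seurat 4.1.1, mm10 and GRCm38 are named in the submitters' processing notes. The sources used here do not state the annotation release, the use of introns and strand, or how nuclei were called. Introns in nuclear RNA can raise long genes.

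Nuclei were kept at 200 or more genes and no more than 5% mitochondrial UMIs. They were clustered with scanpy 1.11.5 on 2000 variable genes, 30 components, 15 neighbours and Leiden resolution 1. Xist, Tsix, Y-linked genes, Cavin1 and the clock genes were left out of the clustering. So were the clock-associated, cAMP and immediate early, glucocorticoid-responsive and muscle clock output genes. Classes named from another marker list needed at least 3 detected markers. Clusters that no such list named were called myonuclei-like if their summed myonuclear markers reached 0.5 of the median over clusters and depth was not low. Clusters with several neural or repeat genes among their top genes were left unnamed. No doublet caller was run. UMIs were summed per library and class, and CPM intervals are exact Poisson (95%). With 1 library per genotype there is no replicate and no test. The ratio interval was tested on simulated data. Fibre type was the adult myosin gene with more than 0.5 of the myosin UMIs of a nucleus, given at least 2. For gene lists, those past 1.5-fold with the 3 highest and 3 lowest ratios were named. The clock genes and lists were chosen with earlier results of these data known. The values of 1 gene of the clock-associated list are not reported here.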

Additional observations from a re-analysis of the deposited data

Results flagged for a closer look

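Cry1 was higher in PTRF KO over all myonuclei-like nuclei (log2 ratio 0.29) but lower in IIa nuclei (−1.07), at 18.0 CPM (11 UMIs) in PTRF KO and 38.9 CPM (27 UMIs) in WT. IIa nuclei are part of the myonuclei, and the difference between the 2 ratios was not tested.

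For 3 genes the log2 ratio of type IIb over IIx and IIa nuclei differed between the libraries by more than counting error, given as PTRF KO minus WT. The difference was −0.94 for Per1, −1.01 for Dbp and 0.45 for Clock, whose interval of 0.01 to 0.90 begins near 0. Each library is 1 sample, so these intervals say nothing of other mice. The share of all genes with such a difference is not given here.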

How the results depend on the processing

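No paired analysis was possible because there is 1 library per genotype and the labels give no replicate numbers; no library can be left out either. Arntl was lower in PTRF KO myonuclei under all 17 settings tried (−1.39 to −0.52). At 1.5-fold, 2 clock genes were higher and 1 lower. The higher count was 0 without abundant genes, at 2-fold, with at least 500 genes and in IIb nuclei. It was 1 after thinning to 500 UMIs, without the deepest 5% of nuclei, over all nuclei, at resolution 0.5, with libraries clustered apart, with unnamed clusters counted as myonuclei and in Y-marked nuclei. The lower count was 0 at 2-fold, with at least 500 genes, with at least 1000 UMIs and after thinning. It was also 0 in Y-marked nuclei, in IIb nuclei, and with the clock genes and the other gene lists kept in the clustering. Of clock-associated genes (3 higher and 2 lower), 1 was lower at 2-fold, with at least 200 UMIs per gene and for Xist-marked PTRF KO nuclei, and 5 were higher without the deepest 5%. The cause was not tested.

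Nr1d2 was −0.25 without abundant genes, −0.02 after thinning and −0.20 in Y-marked nuclei. Thinning gave 0.17 for Per2 and 0.21 for Per3, and relative to Arntl 0.73 and 0.78. Over all nuclei Clock was 0.26, and 0.91 relative to Arntl, which was 0.44 with at least 1000 UMIs. IIb nuclei alone, a setting chosen after seeing the data, gave −0.27 for Per3, 0.08 for Dbp and 0.65 for Dbp relative to Arntl.

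Xist-marked PTRF KO set against Y-marked WT nuclei gave Per1 −0.18, Cry1 −0.03, Cry2 1.19, Arntl −1.39, Clock −0.44, Nr1d2 −0.03 and Dbp 0.59. Relative to Arntl these nuclei gave Per1 1.21, Per2 0.90, Per3 1.16, Cry1 1.36, Cry2 2.58, Clock 0.95, Nr1d1 2.12, Nr1d2 1.37 and Dbp 1.99.

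With fibre type called after thinning, the IIb ratio of Arntl in PTRF KO turned to −0.01 and that of Clock was 0.72. In WT it was 1.18 for Per3, 0.84 for Cry1, 0.27 for Cry2 and −0.49 for Clock. In Y-marked nuclei Clock was 0.01 in the fibro-adipogenic-like class and Nr1d2 1.68 in the macrophage-like class. Fibre types in Y-marked nuclei, also added after seeing the data, gave IIb ratios of Arntl of 0.75 in PTRF KO and 0.73 in WT. Thinning left out 0 PTRF KO and 2055 WT nuclei. In WT fibro-adipogenic-like nuclei Nr1d1 rested on 5 UMIs and Dbp on 15, which limits what can be said there.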
